A study of Mus musculus with 4 samples.

Results

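The genes of the glutathione, peroxiredoxin and thioredoxin systems were taken by name from the gene tables of 4 RNA sequencing libraries of mouse breast tumour cells, 2 irradiated and 2 unirradiated. They are the protein-coding genes named as soluble or microsomal glutathione transferases (Gst and Mgst), glutathione peroxidases (Gpx), peroxiredoxins (Prdx) or with a symbol starting in Txn, the glutamate-cysteine ligase subunits Gclc and Gclm, the superoxide dismutases Sod1, Sod2 and Sod3, and Gsr, Gss, Cat, Nqo1, Hmox1, Srxn1, Nfe2l2 and Keap1. The rule used names and no measured values, although earlier results of these data were known when it was set. It gave 71 genes of the 22046 protein-coding genes and 54532 genes of all kinds in the tables. The irradiated group holds libraries A and B, whose tumours received targeted radiation at day 6, with a dose of 6 Gy. The unirradiated group holds libraries A and B with no radiation, and the titles of all 4 carry the mark 6D. Both groups come from C57BL/6 mice with MMTV-PyMT tumours labelled Dll1 mcherry+. In this model the promoter of the mouse mammary tumour virus drives polyomavirus middle T antigen in mammary epithelium, which then forms carcinomas.

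Glutathione is a small thiol that Gclc, Gclm and Gss make from amino acids, that peroxidases use to reduce peroxides, that transferases attach to reactive compounds, and that Gsr returns to its reduced form with NADPH. Peroxiredoxins remove hydrogen peroxide through a reactive cysteine and are reduced again by thioredoxin, which thioredoxin reductase in turn reduces with NADPH. NRF2, the product of Nfe2l2, is the transcription factor known for inducing many of these genes under oxidative stress, and KEAP1 directs its degradation. Ionizing radiation forms reactive oxygen species in tissue, the substrates of some of these enzymes.

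The libraries held between 13011489 and 23763830 counts, so that 1 count was worth 0.0421 to 0.0769 CPM, the count of a gene scaled by library size. The 71 genes took 0.499% and 0.514% of the counts in the irradiated libraries and 0.535% in each unirradiated one. The labels name the cells as CAFs (cancer-associated fibroblasts) and mention that a PDGFRa antibody was applied after the tumours were digested, without saying which cells the RNA came from. Epithelial transcripts were abundant in every library. The 13 epithelial markers examined summed to 9052 and 9390 CPM in the irradiated libraries and 9948 and 9957 CPM in the unirradiated ones, and 3 of them rose and 7 fell. The 10 fibroblast markers summed to 1684 and 1698 CPM in the irradiated libraries and 536 and 500.2 CPM in the unirradiated ones, and 8 rose and 0 fell. All 10 macrophage markers rose, with sums of 819 and 815 CPM in the irradiated libraries against 322 and 321 CPM in the unirradiated ones, as did all 8 endothelial markers, with sums of 191 and 179 CPM in the irradiated libraries against 80.7 and 86.2 CPM in the unirradiated ones. Of 8 neutrophil markers 1 rose and 5 fell. The riser was Ltf, at 2087 and 2122 CPM in the irradiated libraries against 303 and 315 CPM in the unirradiated ones. All the others were lowest in irradiated library B. There Ngp was at 0.646 CPM, against 9.74 CPM in irradiated library A and 10.9 and 14.6 CPM in the unirradiated libraries. All 4 tested erythroid markers fell, with Alas2 at 0.421 and 0.323 CPM in the irradiated libraries against 1.67 and 1.46 CPM in the unirradiated ones. The irradiated libraries were close for Alas2, but the other tested erythroid markers were far lower in irradiated library B than in irradiated library A. The T and NK cell markers summed to 3.31 and 3.63 CPM in the irradiated libraries against 9.07 and 8.90 CPM in the unirradiated ones, with 4 of 5 tested lower. The adipocyte markers summed to 14.9 and 14.5 CPM in the irradiated libraries and 14.4 and 14.2 CPM in the unirradiated ones, with 1 higher and 1 lower of 3 tested. The part of these shifts in cell content in the results that follow was not tested, and in such bulk RNA fewer cells of a type and less RNA per cell cannot be told apart.

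Of the 71 genes, 60 had enough counts to be tested, and the irradiated group differed in both directions, with more genes lower than higher. With edgeR's quasi-likelihood test and Benjamini-Hochberg adjustment over 15961 genes at a threshold of 0.05, 45 of the 60 (75%) were called, against 66.4% of all genes tested. The 16 that rose made up 26.7% of the 60, where 33.9% of all tested genes rose, and the 29 that fell made up 48.3%, where 32.5% of all tested genes fell. A change of at least 2-fold was called for 11 genes, 5 higher and 6 lower, which is 18.3% beside 20.9% of all tested genes. The libraries of the groups did not overlap for 51 of the 60 (85%), beside 82.5% of all tested genes. The median log2 fold change, irradiated over unirradiated, was -0.15, beside -0.00 for all tested genes. The summed level of the 71 genes was 4744 and 4933 CPM in the irradiated libraries and 5608 and 5634 CPM in the unirradiated libraries. Levels are CPM scaled by the trimmed mean of M values (TMM), and they compare libraries, not genes of different length. Nothing states that A and B are separate animals, so the p-values reflect only how far these libraries vary, possibly for technical reasons. The labels name no batch, so that a batch following the groups and irradiation cannot be told apart.

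**Figure D1:**
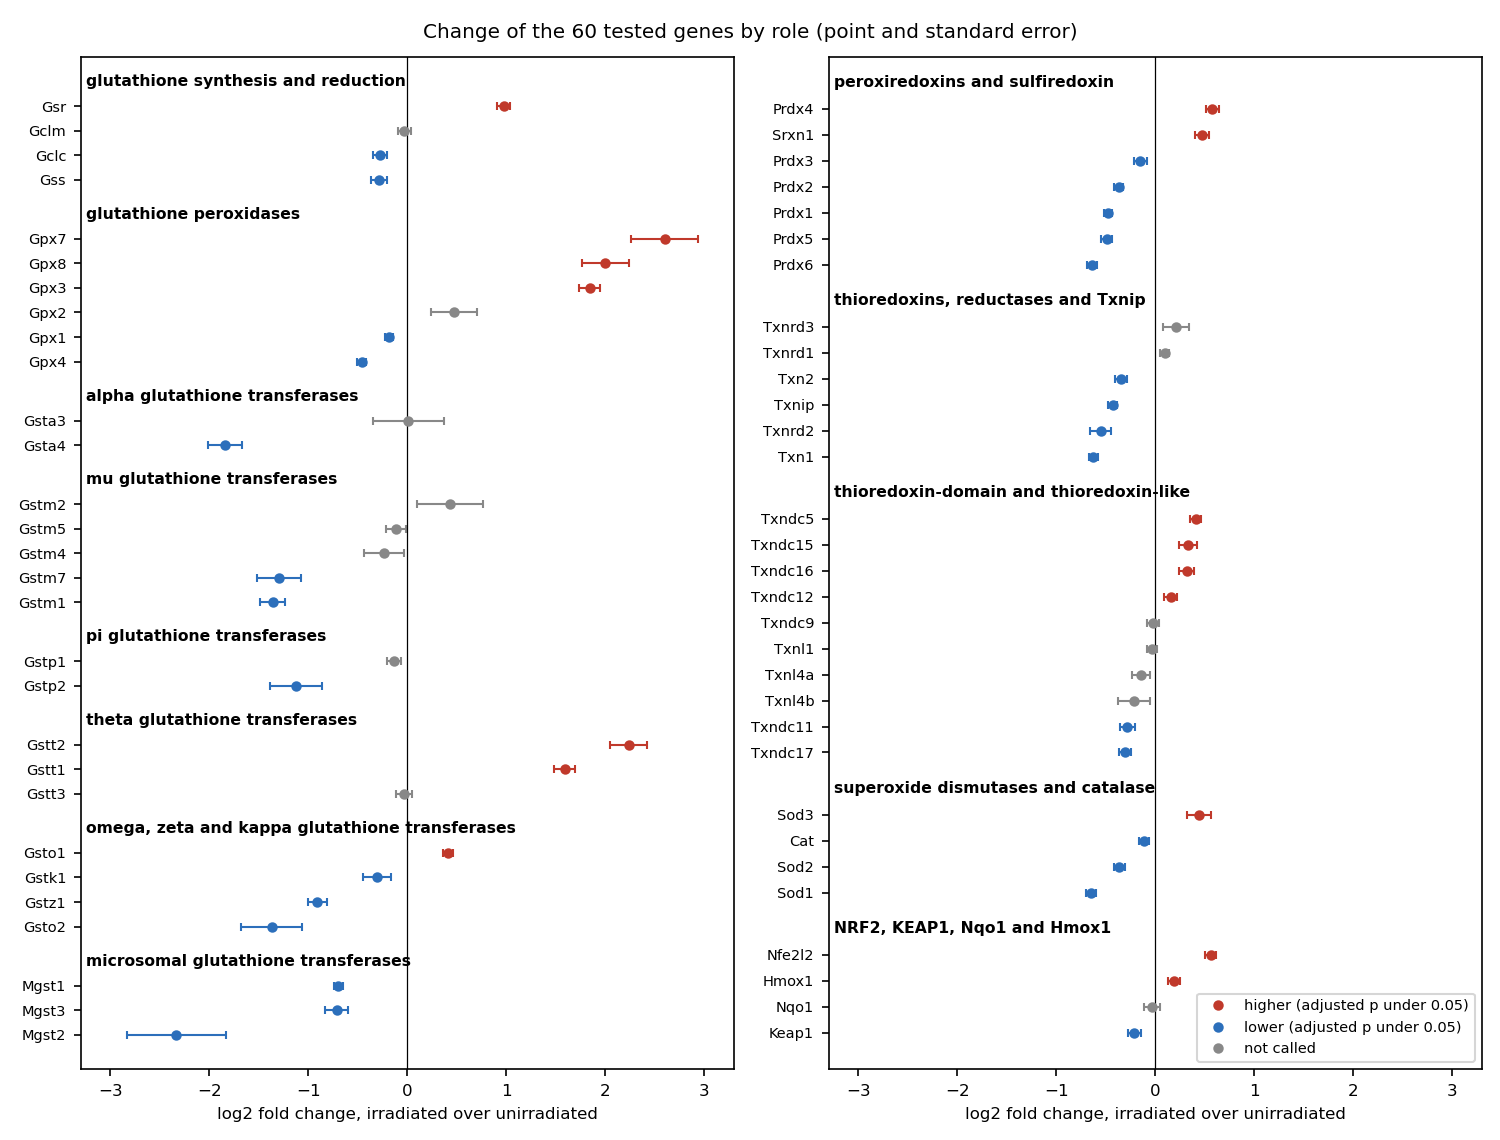
Log2 fold change of each of the 60 tested genes, irradiated over unirradiated (x axis), grouped by role, with the standard error as a bar and the edgeR call as the colour. The 5 rises of at least 2-fold are Gpx7, Gpx8, Gpx3, Gstt2 and Gstt1, and most peroxiredoxins, thioredoxins and soluble transferases lie left of 0 or near it.

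Among the regulators Nfe2l2 rose and Keap1 fell slightly, while of the classical NRF2 targets Hmox1 rose slightly and Nqo1 was not called. Nfe2l2, at chr2:75675513-75704641 on the minus strand (coordinates are those of the deposited tables, build mm10), was at 162 and 155 CPM in the irradiated libraries, against 102 and 114 CPM in the unirradiated libraries. Both irradiated libraries lay above both unirradiated ones, and the log2 fold change of 0.56 (SE 0.0547) was called by edgeR with an adjusted p of 6.42e-14. Keap1, the adaptor that brings NRF2 to a ubiquitin ligase, was at 53.0 and 54.9 CPM in the irradiated libraries, against 59.8 and 66.0 CPM in the unirradiated libraries. Its fall (log2 fold change -0.21, adjusted p 0.00534) was called over all 4 libraries. The Keap1 call was lost without unirradiated B (-0.14, adjusted p 0.138), without irradiated A (-0.18, 0.0538) and when low counts were left unfiltered (-0.15, 0.11). Nqo1, a quinone reductase often used as a readout of NRF2, was at 40.5 and 40.1 CPM in the irradiated libraries, against 42.4 and 39.7 CPM in the unirradiated libraries. Here the groups overlapped, and the log2 fold change of -0.03 (SE 0.0776) was not called (adjusted p 0.719). Hmox1, the heme oxygenase that releases iron and carbon monoxide from heme, was at 78.7 and 82.9 CPM in the irradiated libraries, against 68.6 and 73.9 CPM in the unirradiated libraries. Its log2 fold change of 0.19 was called with an adjusted p of 0.00667 over all libraries. Without unirradiated A the Hmox1 value was 0.13 (adjusted p 0.156), without irradiated B it was 0.16 (0.0732), and DESeq2 gave 0.18 with an adjusted p of 0.0577.

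In glutathione synthesis and recycling the reductase rose while the synthetic enzymes fell slightly or were not called. Gsr, at chr8:33652523-33698163 on the plus strand, was at 88.3 and 89.6 CPM in the irradiated libraries, against 47.8 and 42.2 CPM in the unirradiated libraries. The groups stood well apart, with a 1.96-fold higher level in the irradiated group (log2 fold change 0.97, SE 0.0673, adjusted p 2.82e-20). Gclc, the catalytic subunit of the rate-limiting ligase, was at 40.9 and 49.6 CPM in the irradiated libraries, against 56.6 and 54.0 CPM in the unirradiated libraries. Irradiated A was the lowest of the 4, and the fall (-0.28, adjusted p 0.00105) was lost without it (-0.15, adjusted p 0.135). The modifier subunit Gclm was at 59.2 and 60.8 CPM in the irradiated libraries, against 61.8 and 61.0 CPM in the unirradiated libraries. All 4 values lay close together, and the log2 fold change of -0.03 (SE 0.0663) was not called (adjusted p 0.682). Gss, the synthetase that adds glycine, was at 33.6 and 32.2 CPM in the irradiated libraries, against 38.7 and 41.7 CPM in the unirradiated libraries, a fall of 0.29 on the log2 scale (adjusted p 0.00173). Much of Gss lies opposite Acss2, which had 477 and 715 counts in the irradiated libraries and 368 and 252 counts in the unirradiated ones, and the library kit does not mark strand.

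The glutathione peroxidases moved in both directions. Gpx3, Gpx7 and Gpx8 rose between 3.59-fold and 6.07-fold, while the abundant intracellular Gpx1 and Gpx4 fell. Gpx3, the secreted peroxidase of plasma and extracellular fluid at chr11:54902453-54910377 on the plus strand, was at 40.2 and 39.8 CPM in the irradiated libraries, against 10.7 and 11.7 CPM in the unirradiated libraries. Gpx7, a peroxidase of the endoplasmic reticulum (ER) at chr4:108400390-108406961 on the minus strand, was at 4.75 and 4.88 CPM in the irradiated libraries, against 0.537 and 1.13 CPM in the unirradiated libraries. Gpx8, an ER membrane peroxidase at chr13:113042753-113046410 on the minus strand, was at 7.88 and 7.83 CPM in the irradiated libraries, against 1.85 and 2.10 CPM in the unirradiated libraries. For all 3 genes both irradiated libraries lay at more than 3 times the level of either unirradiated one. The log2 fold changes were 1.84 for Gpx3 (SE 0.105, adjusted p 2.30e-24), 2.60 for Gpx7 (SE 0.340, adjusted p 8.23e-10) and 2.00 for Gpx8 (SE 0.239, adjusted p 5.57e-11). Gpx7 rests on few reads, 79 and 121 counts in the irradiated libraries and 9 and 14 counts in the unirradiated ones. Of the 10 fibroblast markers 8 rose as well, 7 of them at least 2-fold. Among these, Pdgfra was at 22.9 and 24.6 CPM in the irradiated libraries against 5.43 and 5.74 CPM in the unirradiated ones. Lum was at 16.8 and 18.7 CPM in the irradiated libraries against 2.57 and 2.51 CPM in the unirradiated ones. Thy1 (0.03) and Pdgfrb (0.15) were not called. All 10 macrophage and all 8 endothelial markers rose too. The part of cell content in the rises of Gpx3, Gpx7 and Gpx8 was not tested.

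Gpx4, the enzyme that reduces lipid hydroperoxides in membranes and restrains ferroptosis, was at 244 and 268 CPM in the irradiated libraries, against 357 and 348 CPM in the unirradiated libraries. It fell by 0.46 on the log2 scale (SE 0.0454, adjusted p 8.13e-14), and the groups did not overlap. Of the distinct 50-base stretches in its transcripts, 34.7% occur in other genes, mostly the pseudogene Gpx4-ps2, which had 139 and 250 counts in the irradiated libraries and 264 and 197 counts in the unirradiated ones, so reads may be divided between them. Gpx1, the selenoenzyme that reduces hydrogen peroxide in the cytosol, was at 361 and 382 CPM in the irradiated libraries, against 421 and 423 CPM in the unirradiated libraries. Its fall was small (-0.18, adjusted p 1.32e-04), and it turned to a called rise of 0.10 (adjusted p 0.0125) when the trend of fold change with gene length was removed. Gpx2, known from gut epithelium, was at 4.03 and 6.09 CPM in the irradiated libraries, against 3.16 and 4.61 CPM in the unirradiated libraries. These values overlapped and were not called (0.47, SE 0.233, adjusted p 0.0693), although a call appeared without unirradiated B (0.73, adjusted p 0.0182) and without irradiated A (0.70, 0.0151). It lies inside Fntb on the other strand, which had 696 and 1018 counts in the irradiated libraries and 499 and 309 counts in the unirradiated ones. Gpx5 and Gpx6 had 0 counts in every library, which allows up to 0.0724 CPM in the irradiated group and 0.103 CPM in the unirradiated group. These limits take 3 counts over a group and cover counting error only.

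**Figure D2:**
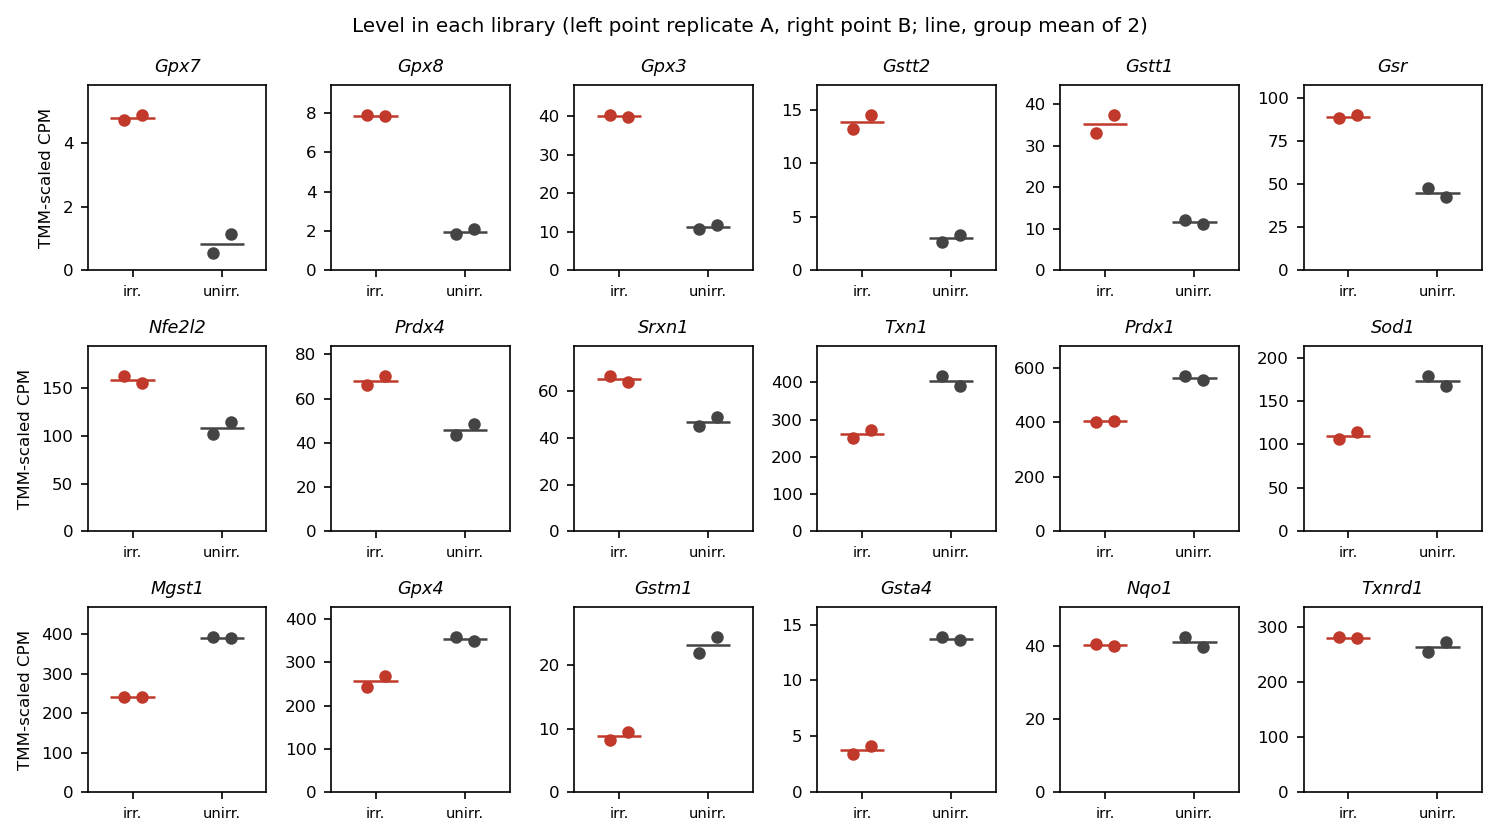
TMM-scaled CPM in each library for 18 genes, with irradiated libraries (irr.) left of unirradiated ones (unirr.), points for libraries A and B and a line for the group mean (n = 2). Gpx7, Gpx8, Gpx3, Gstt2, Gstt1 and Gsr are higher in both irradiated libraries, Txn1, Prdx1, Sod1, Mgst1, Gpx4, Gstm1 and Gsta4 are lower in both, and the groups overlap for Nqo1.

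Log2 fold changes of the glutathione transferases ran from -2.33 for Mgst2 to 2.24 for Gstt2. This was the widest range of any family here, in the family with the most genes. Of 25 transferases 19 were tested, and 3 rose, 10 fell and 6 were not called. Changes of at least 2-fold were called for 8 of them, or 42.1% of the family's tested genes beside 20.9% of all tested genes. For the 6 tested glutathione peroxidases that share was 50%. Neighbouring genes of a class did not move as a block.

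Both rises of at least 2-fold were in the theta class, whose 4 genes lie within 63.3 kb at chr10:75774115-75837424. Gstt1, which conjugates small halogenated compounds, was at 33.1 and 37.3 CPM in the irradiated libraries, against 12.2 and 11.2 CPM in the unirradiated libraries. Gstt2 was at 13.2 and 14.5 CPM in the irradiated libraries, against 2.68 and 3.32 CPM in the unirradiated libraries. Both genes were clearly separated between the groups, with log2 fold changes of 1.59 (SE 0.108, adjusted p 1.19e-20) for Gstt1 and 2.24 (SE 0.188, adjusted p 1.54e-16) for Gstt2. Gstt3, next to Gstt1, was at 37.6 and 38.7 CPM in the irradiated libraries, against 38.1 and 40.6 CPM in the unirradiated libraries. Its groups overlapped and it was not called (-0.04, SE 0.0793, adjusted p 0.699). Gstt4, between Gstt1 and Gstt2, had 2 counts in the irradiated libraries together and 0 in the unirradiated ones and was not tested. Gstt1 shares no 50-base stretch with another gene and Gstt2 shares 0.636% of its stretches.

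The mu genes, 7 of them within 149 kb at chr3:107895821-108044894, included 2 that fell and none that rose. Gstm1, the most studied mu enzyme, was at 8.18 and 9.44 CPM in the irradiated libraries, against 21.8 and 24.3 CPM in the unirradiated libraries. Gstm7 was at 2.47 and 2.82 CPM in the irradiated libraries, against 6.20 and 7.12 CPM in the unirradiated libraries. Neither gene overlapped between the groups, with log2 fold changes of -1.36 for Gstm1 (SE 0.125, adjusted p 4.70e-15) and -1.30 for Gstm7 (SE 0.225, adjusted p 9.82e-07). Gstm5, per kilobase the most abundant of the class, was at 22.9 and 24.3 CPM in the irradiated libraries, against 24.1 and 27.6 CPM in the unirradiated libraries. It overlapped between the groups and was not called (-0.11, adjusted p 0.304), nor were Gstm4 (-0.24, adjusted p 0.301) and Gstm2 (0.43, adjusted p 0.25). Gstm6 had 16 counts in the irradiated and 3 in the unirradiated libraries together, a ratio of 3.75 after scaling with a 95% exact interval of 1.07 to 20.1 that covers counting error only, and Gstm3 had 0. Gstm1 shares 18.9% of its stretches with other genes, so its own value is less certain than that of Gstm7, which shares 0.532%.

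**Figure D3:**
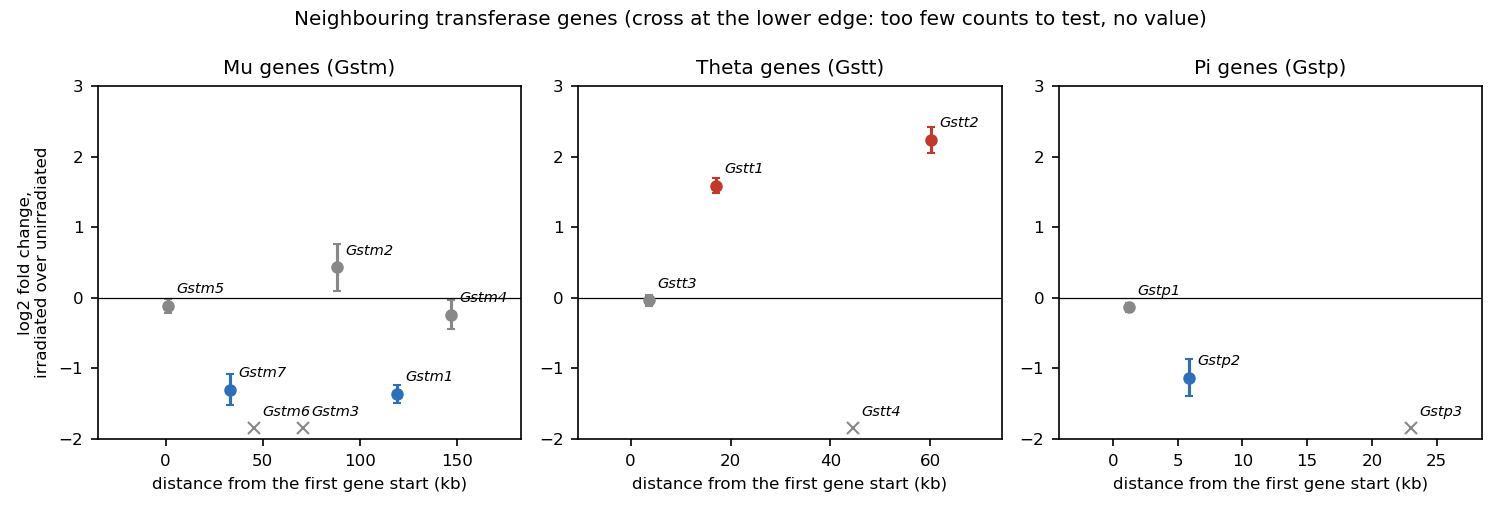
Log2 fold change, irradiated over unirradiated (y axis, bar for the standard error), of the mu, theta and pi transferase genes against their distance in kilobases from the start of the first gene of the cluster (x axis). Gstt1 and Gstt2 lie above 0 beside Gstt3 near 0, Gstm1 and Gstm7 lie below 0 beside uncalled neighbours, and crosses stand for genes with too few counts to test.

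In the alpha class Gsta4, known for conjugating hydroxynonenal from lipid peroxidation, was at 3.43 and 4.12 CPM in the irradiated libraries, against 13.8 and 13.6 CPM in the unirradiated libraries. The groups were far apart, and Gsta4 was 3.58-fold higher in the unirradiated group (log2 fold change -1.84, SE 0.172, adjusted p 9.49e-15). Gsta3 was at 1.68 and 1.69 CPM in the irradiated libraries, between the 2.21 and 0.971 CPM of the unirradiated libraries, and was not called (0.01, SE 0.360, adjusted p 0.986). Its value went to 0.80 without unirradiated A and to -0.38 without unirradiated B. Gsta1 and Gsta2, which share 90.5% and 49.8% of their stretches with other genes, had at most 3 counts in a group.

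The microsomal enzymes, which are unrelated in sequence to the soluble transferases and sit in membranes, all fell. Mgst1, per kilobase the most abundant transferase here, was at 241 and 242 CPM in the irradiated libraries, against 391.8 and 391.3 CPM in the unirradiated libraries. Mgst3 was at 14.3 and 13.2 CPM in the irradiated libraries, against 23.7 and 20.6 CPM in the unirradiated libraries. The falls were of like size, -0.70 for Mgst1 (SE 0.0434, adjusted p 2.11e-22) and -0.71 for Mgst3 (SE 0.114, adjusted p 1.56e-07), with no overlap. Mgst2 was at 0.12 and 0.525 CPM in the irradiated libraries, against 2.39 and 1.13 CPM in the unirradiated libraries. It rests on 15 counts in the irradiated and 54 in the unirradiated libraries together, a ratio of 0.195 with a 95% exact interval of 0.102 to 0.351. The fitted log2 fold change of -2.33 (adjusted p 4.55e-05) became -1.63 without unirradiated A, where the call was lost (adjusted p 0.0539), and -3.84 without irradiated B.

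Among the remaining classes Gsto1, an omega enzyme that reduces dehydroascorbate, was at 135 and 141 CPM in the irradiated libraries, against 104 and 104 CPM in the unirradiated libraries. Its neighbour Gsto2 was at 1.44 and 1.33 CPM in the irradiated libraries, against 2.92 and 4.45 CPM in the unirradiated libraries. These adjacent genes, within 31.4 kb at chr19:47854970-47886324, moved in opposite directions, with a log2 fold change of 0.41 for Gsto1 (adjusted p 1.01e-09) and -1.37 for Gsto2 (adjusted p 9.73e-05). Both lie inside Cfap43 on its other strand, which had 1604 and 2184 counts in the irradiated libraries and 464 and 315 counts in the unirradiated ones, and the reads do not mark strand. Gstz1, the maleylacetoacetate isomerase of tyrosine breakdown, was at 20.9 and 18.6 CPM in the irradiated libraries, against 37.8 and 35.6 CPM in the unirradiated libraries, a fall of 0.91 on the log2 scale (adjusted p 2.98e-13). Gstk1, of mitochondria and peroxisomes, was at 9.92 and 10.5 CPM in the irradiated libraries, against 13.5 and 11.7 CPM in the unirradiated libraries. Its fall of 0.31 passed narrowly (adjusted p 0.0485), and the call was lost without unirradiated A (-0.18, adjusted p 0.385), without irradiated A (-0.26, 0.185) and without irradiated B (-0.34, 0.112).

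The pi genes Gstp1 and Gstp2 are close copies, and the stretches just before their starts are shown because they are alike too and hold the same motif. The sequences are from RefSeq (build GRCm38.p6), written 5′ to 3′ along the minus strand, at chr19:4037922-4038162 for Gstp1 and chr19:4042237-4042471 for Gstp2. Capitals mark TGACTCA, the motif bound by AP-1 and related leucine zipper factors, which reads TGAGTCA where it stands on the other strand.
Gstp1: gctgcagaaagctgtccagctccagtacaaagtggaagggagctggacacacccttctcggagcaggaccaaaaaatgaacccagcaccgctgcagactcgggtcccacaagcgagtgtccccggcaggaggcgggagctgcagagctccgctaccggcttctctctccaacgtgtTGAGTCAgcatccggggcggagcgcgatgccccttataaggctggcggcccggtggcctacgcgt
Gstp2: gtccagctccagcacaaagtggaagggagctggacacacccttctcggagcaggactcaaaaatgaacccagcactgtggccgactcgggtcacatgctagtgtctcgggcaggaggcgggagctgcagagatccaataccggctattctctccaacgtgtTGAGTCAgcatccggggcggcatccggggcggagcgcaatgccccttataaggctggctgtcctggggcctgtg
Of 223 aligned bases 200 were identical, or 89.7%. Despite this likeness the genes differed in level and in call. Gstp1, per kilobase the second most abundant transferase, was at 54.3 and 57.7 CPM in the irradiated libraries, against 62.5 and 60.8 CPM in the unirradiated libraries, and was not called (-0.14, SE 0.0674, adjusted p 0.0706). Gstp2 was at 2.29 and 1.98 CPM in the irradiated libraries, against 3.997 and 5.42 CPM in the unirradiated libraries, and fell by 1.13 on the log2 scale (SE 0.263, adjusted p 1.56e-04). Their transcripts share 33.7% of the stretches of Gstp1 and 54.3% of those of Gstp2 with other genes, mostly each other, so the value of each is uncertain. Gstp1 was called lower with upper-quartile scaling (-0.18, adjusted p 0.018) and with a stricter filter (-0.15, 0.0391), and higher once the length trend was removed (0.35). Gstp3 had 1 count in the irradiated and 11 in the unirradiated libraries together, a ratio of 0.0639 with a 95% exact interval of 0.00149 to 0.440.

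Peroxiredoxins fell, with the exception of the ER member. Prdx1, per kilobase the most abundant of them, was at 399 and 406 CPM in the irradiated libraries, against 567 and 553 CPM in the unirradiated libraries. Prdx2, also of the cytosol, was at 215 and 216 CPM in the irradiated libraries, against 272 and 286 CPM in the unirradiated libraries. Both cytosolic enzymes were lower in each irradiated library, with log2 fold changes of -0.48 for Prdx1 (SE 0.0406, adjusted p 2.50e-16) and -0.37 for Prdx2 (adjusted p 1.63e-10). Prdx6, which also has phospholipase activity, was at 129 and 131 CPM in the irradiated libraries, against 202 and 202 CPM in the unirradiated libraries. Prdx5, found in mitochondria, peroxisomes and cytosol, was at 96.6 and 108 CPM in the irradiated libraries, against 144 and 146 CPM in the unirradiated libraries. The groups did not overlap for either, with log2 fold changes of -0.64 for Prdx6 (adjusted p 4.88e-18) and -0.49 for Prdx5 (adjusted p 5.74e-12). The mitochondrial Prdx3 was at 59.7 and 64.4 CPM in the irradiated libraries, against 66.8 and 72.0 CPM in the unirradiated libraries. Its fall of 0.15 (adjusted p 0.0388) was lost without unirradiated B (-0.10, adjusted p 0.309), without irradiated A (-0.09, 0.33), with DESeq2 (-0.16, 0.135) and with no filter (-0.09, 0.372), and turned to 0.13 without the length trend. Prdx4, the ER peroxiredoxin, went the other way, at 66.2 and 70.0 CPM in the irradiated libraries, against 43.4 and 48.7 CPM in the unirradiated libraries (0.58, SE 0.0704, adjusted p 1.09e-10). Prdx6b had 0 counts in the irradiated and 2 in the unirradiated libraries.

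Srxn1, the sulfiredoxin that repairs hyperoxidized peroxiredoxins, rose while its main substrates Prdx1 and Prdx2 fell. It was at 66.3 and 63.8 CPM in the irradiated libraries, against 44.9 and 49.0 CPM in the unirradiated libraries, without overlap (log2 fold change 0.47, SE 0.0699, adjusted p 2.32e-08). The stretches before the starts of Srxn1 and Prdx1 are shown because each holds TGACTCA at 2 places although the genes moved in opposite directions. They are RefSeq sequences of build GRCm38.p6, 5′ to 3′ on the plus strand, at chr2:152105274-152105515 for Srxn1 and chr4:116685349-116685543 for Prdx1. Capitals mark TGACTCA on either strand. In Prdx1 they also mark TGACNNNGC, where it overlaps the second TGACTCA. TGACNNNGC is a core of the antioxidant response element, bound by NRF2 with small MAF proteins, and was the only form of that element searched. The second TGAGTCA of Srxn1 and the TGAGTCA of Gstp1 and Gstp2 are followed by gc. With these bases they differ from TGACNNNGC only by a G where TGAC has C. Whether NRF2 binds them was not tested.
Srxn1: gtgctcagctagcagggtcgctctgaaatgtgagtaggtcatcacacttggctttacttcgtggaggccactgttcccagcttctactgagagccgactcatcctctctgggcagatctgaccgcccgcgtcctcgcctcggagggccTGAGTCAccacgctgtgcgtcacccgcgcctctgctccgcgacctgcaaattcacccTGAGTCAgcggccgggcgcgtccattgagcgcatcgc
Prdx1: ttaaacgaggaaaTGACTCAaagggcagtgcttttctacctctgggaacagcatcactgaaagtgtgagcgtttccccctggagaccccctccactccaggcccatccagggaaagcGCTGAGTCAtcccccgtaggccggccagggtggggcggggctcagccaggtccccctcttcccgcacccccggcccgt
RefSeq windows from 250 bases before to 50 bases after a start were found for 61 of the 71 genes. TGACTCA, searched on both strands, was in the window of 6 of the 61 (9.84%), beside 5.95% of 27025 genes and 5.2% of 32851 windows of the same length. Those 6 were Srxn1, which rose, Prdx1, Gstp2 and Mgst2, which fell, and Gstp1 and Gstm5, which were not called. TGACNNNGC was in the window of 13 (21.3%), beside 14% of all genes and 12.4% of all windows, and 3 of the 71 held both motifs, which can overlap. Of the 13, Nfe2l2, Srxn1 and Txndc5 rose and Prdx1, Mgst1, Sod1, Gstm7 and Txndc11 fell. A match describes these letters and does not show a binding site. A window without TGACNNNGC may still hold another form of the element, which was not searched.

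The thioredoxins fell and the cytosolic reductase was not called. Txn1, at chr4:57943373-57956411 on the minus strand, had the highest level per kilobase of all 71 genes, with 248 CPM per kilobase in the irradiated group and 384 in the unirradiated group, and ranked 133 of 22046 protein-coding genes over all libraries. It was at 250 and 272 CPM in the irradiated libraries, against 416 and 391 CPM in the unirradiated libraries. The groups stood apart, with a log2 fold change of -0.63 (SE 0.0450, adjusted p 1.42e-19), which was -0.24 and still called with the length trend removed. Txnrd1, the selenoenzyme that reduces Txn1, was at 282 and 280.1 CPM in the irradiated libraries, against 255 and 273 CPM in the unirradiated libraries. Both irradiated values were the higher ones, but the change was not called (0.09, SE 0.0452, adjusted p 0.0664). It was called higher with no filter (0.15, adjusted p 0.00824) and without unirradiated B (0.14, 0.0343), and lower with the length trend removed (-0.17, adjusted p 8.49e-04). In mitochondria Txn2 was at 73.7 and 76.1 CPM in the irradiated libraries, against 94.8 and 96.0 CPM in the unirradiated libraries (log2 fold change -0.35, adjusted p 7.12e-07). Its reductase Txnrd2 was at 15.0 and 16.3 CPM in the irradiated libraries, against 22.7 and 23.7 CPM in the unirradiated libraries (-0.55, adjusted p 9.46e-06), without overlap. Txnip, which binds thioredoxin and inhibits it, was at 208 and 211 CPM in the irradiated libraries, against 285 and 280 CPM in the unirradiated libraries. Thus the inhibitor fell with thioredoxin itself (-0.43, SE 0.0454, adjusted p 8.02e-13). Txnrd3, a reductase best known from testis, was at 14.9 and 14.4 CPM in the irradiated libraries, against 13.2 and 11.9 CPM in the unirradiated libraries, and was not called (0.21, adjusted p 0.143).

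Proteins that carry a thioredoxin fold were mixed, with 4 higher, 2 lower and 4 not called of 10 tested. Txndc5, a protein disulfide isomerase of the ER, was at 170 and 178 CPM in the irradiated libraries, against 123.2 and 140.0 CPM in the unirradiated libraries, a rise of 0.41 (SE 0.0533, adjusted p 9.33e-10). Txndc15 (0.33), Txndc16 (0.32) and Txndc12 (0.15) also rose on the log2 scale. The Txndc12 call (adjusted p 0.0327) was lost without unirradiated A (0.19, adjusted p 0.0581), unirradiated B (0.14, 0.141) or irradiated B (0.12, 0.203), and Txndc16 was at -0.04 with the length trend removed. Txndc11, an ER protein that binds dual oxidases, fell by 0.28 (adjusted p 6.81e-04). Txndc17, a cytosolic protein that reduces disulfides, was at 71.7 and 67.3 CPM in the irradiated libraries, against 84.1 and 87.5 CPM in the unirradiated libraries. It fell by 0.31 (adjusted p 1.63e-05), but was at 0.01 with the length trend removed. Txnl1, a protein associated with the proteasome, was at 134 and 144 CPM in the irradiated libraries, against 142 and 144 CPM in the unirradiated libraries, and the groups overlapped. Txnl1, the chaperonin partner Txndc9 and the splicing proteins Txnl4a and Txnl4b were not called, with log2 fold changes between -0.22 and -0.03. Txnl4a was called lower without irradiated B (-0.30, adjusted p 0.0174). The sperm genes Txndc2 and Txndc8 had 0 counts in every library.

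Among the enzymes that turn superoxide into hydrogen peroxide, or break the peroxide down, the intracellular ones fell and the extracellular one rose. Sod1, the copper and zinc enzyme of the cytosol, was at 106 and 114 CPM in the irradiated libraries, against 178 and 167 CPM in the unirradiated libraries. Sod2, the manganese enzyme of mitochondria, was at 105 and 109 CPM in the irradiated libraries, against 134 and 141 CPM in the unirradiated libraries. Neither overlapped, with log2 fold changes of -0.65 for Sod1 (SE 0.0528, adjusted p 3.52e-17) and -0.36 for Sod2 (SE 0.0538, adjusted p 2.24e-08). Sod2 shares 21% of its 50-base stretches with other genes, mostly AC166110.4, so its own value is less certain. Sod3, the extracellular enzyme, was at 16.7 and 19.9 CPM in the irradiated libraries, against 13.2 and 14.3 CPM in the unirradiated libraries, and rose by 0.44 (adjusted p 0.00127), a call lost without irradiated B (0.29, adjusted p 0.11). Catalase (Cat) of peroxisomes was at 134 and 137 CPM in the irradiated libraries, against 149 and 145 CPM in the unirradiated libraries. The fall of 0.11 passed narrowly (adjusted p 0.0469) and was lost without each library in turn, with log2 fold changes between -0.13 and -0.09 and adjusted p between 0.0922 and 0.262.

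The most abundant genes mostly fell, where 32.5% of all tested genes fell. Of the 10 with the highest level per kilobase, 8 fell, Gsto1 rose and Gstp1 was not called, and of the 20 highest 13 fell, 4 rose and 3 were not called. The 10 highest summed to 2178 and 2263 CPM in the irradiated libraries and 2960 and 2925 CPM in the unirradiated libraries. A level per kilobase favours short genes, and no share was taken among genes of like level. Of all tested genes over 1000 and up to 1500 bases 48.5% fell, and of those up to 2000 bases 44.8%. In the class up to 3000 bases, which holds Mgst1, 41.1% fell. In the class up to 4000 bases, which holds Prdx1, Prdx2 and Txnip, 32.9% fell. With the trend of fold change with gene length removed, Gpx1 and Gstp1 of these 10 were called higher and Txndc17 was not called.

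Fold changes followed gene length across all genes. Over all tested genes the median log2 fold change was -0.58 for the 1193 genes of at most 1000 bases and 0.21 for the 4359 genes over 6000 bases, higher in each longer class between. Of the 60 genes, 11 lie in the class over 1000 and up to 1500 bases and 11 in the class up to 2000 bases. Their medians there were -0.31 and -0.03, beside -0.40 and -0.26 for all tested genes. In the class up to 3000 bases the median of these genes was 0.06, beside -0.17. In the classes up to 4000, up to 6000 and over 6000 bases it was -0.32, -0.25 and -0.03. There the medians of all tested genes were -0.01, 0.10 and 0.21. The 2 genes of at most 1000 bases had a median of -0.63. With this trend removed, 18 of the 60 genes were higher and 27 lower, the median was -0.03 beside -0.06 for all tested genes, and 28.3% of all tested genes were higher and 35.3% lower. The large changes kept their calls there, at 2.92 for Gpx7, 2.38 for Gpx8, 2.05 for Gpx3, 1.86 for Gstt1, 2.13 for Gstt2, 1.05 for Gsr, -1.51 for Gsta4 and -1.08 for Gstm1. Among abundant enzymes Txn1 (-0.24), Gpx4 (-0.24), Prdx1 (-0.44), Mgst1 (-0.52) and Sod1 (-0.74) were still called lower, whereas Gpx1 was called higher (0.10, adjusted p 0.0125) and Txndc17 was at 0.01 and not called. Nqo1 was then called higher (0.23, adjusted p 0.00797) and Gclm lower (-0.25, adjusted p 7.02e-04). The part of cell content in this trend was not tested.

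**Figure D4:**
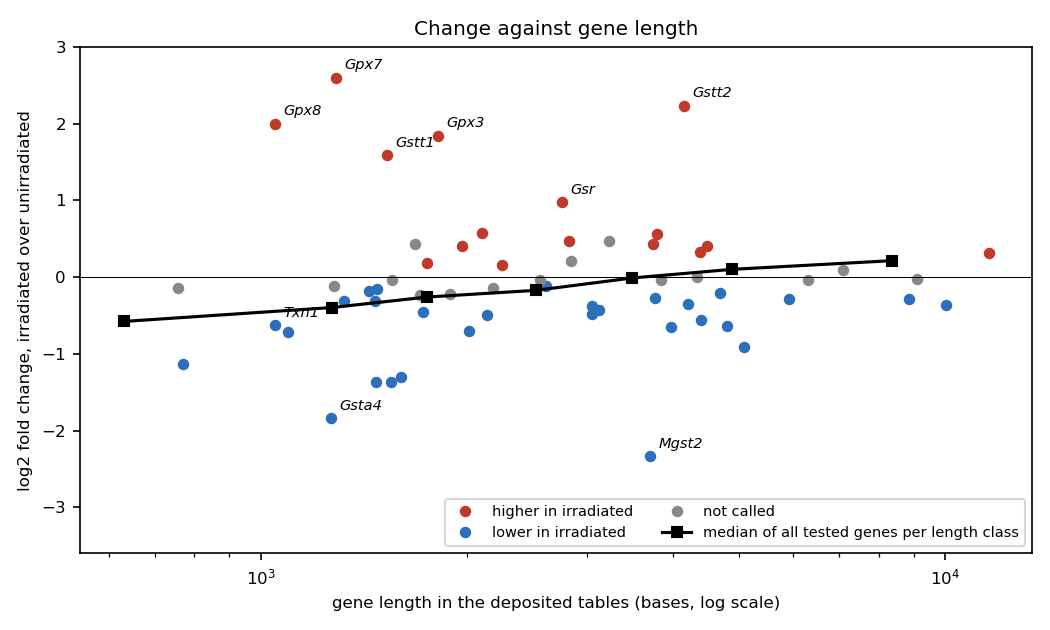
Log2 fold change, irradiated over unirradiated (y axis), of the 60 tested genes against gene length in bases (x axis, log scale), with black squares for the median of all tested genes in each of 7 length classes. The black line climbs from -0.58 to 0.21 with length, and Gpx7, Gpx8, Gpx3, Gstt1 and Gstt2 lie far above it while Gsta4 and Mgst2 lie far below.

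Genes that supply these systems were read from the same fit, in which 33.9% of all tested genes rose, 32.5% fell and 20.9% changed at least 2-fold. Of 16 genes of cysteine supply and glutathione breakdown, 7 rose, 6 of them at least 2-fold, and 3 fell, with a median log2 fold change of 0.28. Cbs, which makes cystathionine from homocysteine, was at 22.5 and 24.9 CPM in the irradiated libraries, against 2.80 and 2.75 CPM in the unirradiated libraries (3.10, adjusted p 1.46e-25). Ggt1, which cleaves glutathione outside the cell, was at 13.9 and 12.9 CPM in the irradiated libraries, against 2.86 and 2.51 CPM in the unirradiated libraries (2.30, adjusted p 1.58e-16). Dpep1, the dipeptidase that acts after it, rose by 3.53 (SE 0.430) and Ggt7 by 1.44 on the log2 scale. Dpep1 rests on few reads, 61 and 106 counts in the irradiated libraries and 4 and 6 counts in the unirradiated ones. Slc7a11, the cystine transporter, named after its values were seen, was at 2.04 and 2.26 CPM in the irradiated libraries, against 2.15 and 1.29 CPM in the unirradiated libraries, and was not called (0.28, adjusted p 0.455). Of 12 glutaredoxins, methionine sulfoxide reductases and related genes 4 rose and 7 fell, with a median of -0.31. Park7, a cysteine-based stress protein, was at 77.3 and 76.4 CPM in the irradiated libraries, against 189 and 187 CPM in the unirradiated libraries (-1.29, adjusted p 1.77e-31). Msrb3 rose (1.24) and Msrb2 (-0.83) and Glrx5 (-0.60) fell. Of 17 tested genes that supply NADPH 5 rose and 8 fell, with a median of -0.18. The change was largest for the malic enzyme Me3 (1.85, adjusted p 0.00184), whose mean was under 1 CPM and which was named after its values were seen. Of those at 1 CPM or more, the largest changes were in the pentose phosphate enzyme Taldo1 (-0.73), the NAD kinase Nadk (-0.56), Pgls (-0.55) and the mitochondrial folate enzyme Mthfd2 (0.53).

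Partners and other targets of NRF2 did not move one way. Their counts stand beside the same 33.9% of all tested genes that rose and 32.5% that fell. Of 14 partners and regulators 6 rose and 5 fell, with a median of 0.05. Nfe2l3, a relative of NRF2, was at 8.42 and 8.997 CPM in the irradiated libraries, against 41.8 and 43.4 CPM in the unirradiated libraries (-2.28, adjusted p 7.62e-29). Maff (-0.77) and Rbx1 (-0.45) fell, and Btrc (0.39) rose. Of 20 tested further genes known as NRF2 targets 7 rose and 6 fell, with a median of 0.20. Abcc3, an export pump for glutathione and glucuronide conjugates, was at 20.9 and 21.6 CPM in the irradiated libraries, against 2.33 and 2.59 CPM in the unirradiated libraries (3.12, adjusted p 1.47e-24). The aldehyde dehydrogenase Aldh3a1 rose by 3.90 (SE 0.471), while the carbonyl reductase Cbr1 (-0.86) and Osgin1 (-0.67) fell. Aldh3a1 rests on few reads, 62 and 91 counts in the irradiated libraries and 4 and 3 counts in the unirradiated ones.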

How the data were processed

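RNA was measured by sequencing in 4 libraries, 2 per group, grouped by the treatment in the labels. What the authors deposited for each library is a table of raw integer counts, 1 per gene. STAR 2.5, HTSeq 0.6.1, DESeq2 and mm10 are named in the submitters' processing notes, with no settings or annotation release. Poly(A) RNA went into a non-directional kit, per the labels' protocols, so reads of genes on opposite strands cannot be told apart. This also touches parts of Prdx2, Prdx5, Sod1, Txnrd2, Gstz1, Txndc5, Txndc11 and Txndc16, which overlap a gene of the other strand. Parts of Keap1, Gstm5, Gclm, Txnrd1 and Txndc12 and the whole span of Txnip overlap such a gene as well. Gpx8 and Gsta3 overlap other-strand genes that had 0 counts in every library. On their own strand Txnl4a overlaps Gm16286 and Txndc12 overlaps Kti12.

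Counts were tested with edgeR 4.0.16 in R 4.3.3 (filterByExpr, TMM, quasi-likelihood F-test, Benjamini-Hochberg adjustment over 15961 genes, threshold 0.05), and every adjusted p is from it unless DESeq2 1.42.0 is named. The SE was taken from the log2 fold change and the root of the F statistic. The fit had 2 residual and 60 prior degrees of freedom. It was also run on counts simulated from its own means with a common dispersion for all genes. Such counts follow the fitted model, so that run cannot show how well the p-values hold for these libraries. An exact permutation of 2 against 2 libraries gives at least 0.333, so none was run. Over genes, the median chi-square between libraries of a group was 2.14 times the counting expectation (irradiated) and 2.11 times (unirradiated), and 28.1 to 29.7 times between groups.

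The members and lists were chosen with earlier results of these data known. Values per library are given for called genes of at least 2-fold and 1 CPM, the 3 most abundant of each family and genes picked by name, and for up to 4 called genes of each other list. Shared 50-base stretches were counted in GENCODE M21 transcripts. Txnip (15.7%) and Prdx5 (15.5%) also shared stretches, mostly with Gm15441 and Trmt112, which lie on the other strand. The alternatives tried were scaling by RLE or upper quartile, DESeq2, no filter, a filter of 1 CPM in 2 libraries, a block for the replicate letter, removal of the length trend (loess, span 0.5), a test against 1.5-fold, a threshold of 0.1, leaving out each library and, added after seeing the data, edgeR's legacy dispersion. A further erythroid marker is not reported here.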

Additional observations from a re-analysis of the deposited data

How the results depend on the processing

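Of the 45 called genes 33 kept direction and call under all 12 alternatives computed per gene, and 12 changed under at least 1. Of the 15 uncalled genes 11 changed. The 16 higher and 29 lower genes became 14 and 26 with DESeq2, 16 and 29 with RLE scaling, 15 and 30 with upper-quartile scaling, 17 and 26 with no filter, 15 and 30 with the stricter filter, and 16 and 27 with the legacy dispersion. Leaving out each library gave 13 to 17 higher and 24 to 28 lower. Against 1.5-fold only 6 were higher and 8 lower, and 2032 and 1754 of all tested genes, since that test asks for more than a difference from 0. Without the length trend the median went to -0.032.

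Over the 12 alternatives the adjusted p ran from 2.45e-05 to 0.138 for Keap1, 2.94e-07 to 0.156 for Hmox1, 2.17e-05 to 0.135 for Gclc, 8.64e-06 to 0.0308 for Gpx1, 0.0151 to 0.801 for Gpx2, 7.90e-06 to 0.0539 for Mgst2, 0.0251 to 0.869 for Gstk1, 1.03e-05 to 0.489 for Gstp1, 0.00971 to 0.372 for Prdx3, 8.49e-04 to 0.568 for Txnrd1, 9.87e-05 to 0.203 for Txndc12, 2.84e-04 to 0.110 for Sod3 and 0.00705 to 0.721 for Cat.

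Signs turned as follows, and the cause was not tested. Without the length trend Gpx1 was at 0.10, Gsta3 at -0.11, Gstm5 at 0.21, Gstp1 at 0.35, Nqo1 at 0.23, Prdx3 at 0.13, Txndc16 at -0.036, Txndc17 at 0.0085, Txnl1 at 0.068, Txnl4a at 0.0008 and Txnrd1 at -0.165. With no filter Gclm was at 0.0299, Gstt3 at 0.0265, Nqo1 at 0.0281, Txnl1 at 0.031 and Txndc9 at 0.0367. Gsta3 was at -0.0354 with upper-quartile scaling and -0.0103 with the stricter filter. Leaving out 1 library gave -0.0428 to 0.0006 for Gclm, -0.38 to 0.80 for Gsta3, -0.0858 to 0.011 for Gstt3, -0.0694 to 0.02 for Nqo1, -0.11 to 0.0641 for Txndc9 and -0.0756 to 0.03 for Txnl1. With 1 library left in a group, it is assumed to vary like the other group.

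Libraries of the same letter did not deviate together (correlation of deviations from the group means 0.0116), so the letters were not taken as pairs. With the replicate letter as a block 16 genes were higher and 28 lower, and Gstk1 alone lost its call (-0.30, adjusted p 0.0642). Genes under about 1 CPM, such as Mgst2, are limited by depth.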

Other observations

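Further lists bear on where peroxides arise and on the selenium and metals these enzymes need. Of all tested genes 33.9% rose, 32.5% fell and 20.9% changed at least 2-fold. Among 12 tested oxidases that make superoxide or hydrogen peroxide 4 rose and 3 fell, with a median log2 fold change of 0.09, and 5 of the 12 changed at least 2-fold. Nox4, an oxidase known from fibroblasts and vessels, was at 18.6 and 15.9 CPM in the irradiated libraries, against 3.997 and 5.02 CPM in the unirradiated libraries (1.94, SE 0.165, adjusted p 2.16e-16). Cybb, the phagocyte oxidase subunit, was at 27.1 and 26.8 CPM in the irradiated libraries, against 10.4 and 9.79 CPM in the unirradiated libraries (1.41, SE 0.117, adjusted p 8.89e-17). The epithelial dual oxidase Duox2 fell, at 0.722 and 0.323 CPM in the irradiated libraries, against 2.51 and 2.67 CPM in the unirradiated libraries (-2.40). The dual oxidase maturation factor Duoxa1 also fell (-1.17), whereas Duox1 was not called (0.20, adjusted p 0.412). Duoxa2 had too few counts to test. Fibroblast and macrophage markers rose as well, and their part in the values of Nox4 and Cybb was not tested.

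Among 17 tested genes of selenoprotein synthesis and other selenoproteins 4 rose and 8 fell, with a median of -0.12. Selenow was at 97.5 and 100.2 CPM in the irradiated libraries, against 195 and 210 CPM in the unirradiated libraries (-1.03, SE 0.0522, adjusted p 8.41e-27). Sephs2, which makes the selenium donor, fell by 0.66, Selenok by 0.52, and Selenoi rose by 0.60. Of 7 tested genes for metal binding and copper delivery 1 rose and 5 fell, with a median of -0.39. The transferrin receptor Tfrc (-0.57), the copper chaperone Atox1 (-0.50) and the metallothionein Mt1 (-0.43) fell, and the iron transporter Slc11a2 rose (0.69).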
